A study of Rattus norvegicus with 10 samples.

Results

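The 10 genes described here, of cholesterol delivery and steroid synthesis, were followed in cultured Sertoli cells from 20-day-old rats over 24 h of follicle-stimulating hormone (FSH). Members were all probe sets carrying, as their single gene symbol, Star, Fdx1, Scarb1, Tspo, Por, Cyp19a1, Hsd17b4, Hsd17b10, Hsd11b1 or Sts, dim ones included. These 10 genes, of 4736 with such a probe set, had 19 probe sets of the 8740 on the array that were not controls. Total RNA was measured on 10 Affymetrix rat arrays. The untreated cultures at 0 h were the control group, and the other groups had received FSH for 2, 4, 8 or 24 h. Each of the 5 groups had 2 arrays, replicate 1 and replicate 2. The labels name no strain, genotype or dose, and leave unsaid whether the 2 arrays of a group stem from different cultures. The p-values therefore reflect array-to-array spread, which may be technical. No untreated culture was labelled later than 0 h, so FSH and time in culture cannot be told apart.

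Steroid synthesis begins when cholesterol, taken up at the cell surface, is moved to the inner mitochondrial membrane. There the side chain is cut by the enzyme that Cyp11a1 encodes, with electrons passed on by ferredoxin. Later steps take place in mitochondria and endoplasmic reticulum, and aromatase turns androgens into oestrogens. In the testis the full route to testosterone belongs to Leydig cells, while Sertoli cells of young animals are known for aromatising androgens under FSH, which acts through cAMP.

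Values below are linear intensities scaled so that all arrays share a 75th percentile of 108. Log2 changes were taken after values under a floor of 13.5 had been set to the floor. A probe set was tested if its mean over the 10 arrays reached 32.0, which 4439 probe sets did, and it was called at a limma adjusted p under 0.05. Of the 19 member probe sets, 18 were tested, and the 1 left out was the only Cyp19a1 probe set. A second fit held the replicate number as a block, because arrays of the same number deviated together. Its adjusted p is given where it changes a call.

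The labels name the cells as Sertoli cells. Of 15 listed Sertoli genes, 10 had a probe set, and their 18 probe sets summed to 11630.5 to 22975 over the 10 arrays. Among them Clu read 6791 to 13806 and Shbg 583 to 913, which encode secreted Sertoli products. The other listed Sertoli genes are not shown singly. Of the 18 probe sets, 15 passed the intensity filter, with all 10 genes among them. At 2, 4, 8 and 24 h, 1 probe set was under the floor on both arrays. The 2 replicate numbers differed in other ways. The 3'/5' ratio of the beta-actin control was 0.928 to 1.17 on replicate 1 arrays and 1.48 to 1.76 on replicate 2 arrays, and the germ cell marker Ldhc was 58.6 to 571 against 1009 to 1652. Among the 19 member probe sets, replicate 2 was higher at all 5 times for 3 and lower at all 5 times for 4. Their part in the results was not tested, beyond the fit with the block. Control replicate 1 stood apart from all other arrays in its spiked CreX control, at a deposited 16221 against 2815 to 9818.

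Star, which encodes the protein that carries cholesterol to the inner mitochondrial membrane, rose at 2 h, was highest at 4 h and was still high at 8 h. Fdx1, which encodes the ferredoxin that feeds electrons to mitochondrial steroid enzymes, was about equally high at 4 and 8 h on its brighter probe set. Scarb1, the receptor that takes up cholesterol esters from high-density lipoprotein, was not higher at 2 h and, with the scaling above, was called only where the fit held the replicate number. It then passed on 1 probe set at 4 h and on 3 at 8 h. No tested probe set of the other 7 genes was called at any time. In bulk RNA, more cells of a type and more RNA per cell cannot be told apart.

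The Star probe set AB001349_at read 2.71 and 22.3 on the untreated arrays of replicates 1 and 2. It read 407 and 301 at 2 h, 733 and 774 at 4 h, 428 and 284 at 8 h, and 131 and 145 at 24 h. All 8 treated arrays lay above both untreated ones, and the 2 arrays at 4 h were above every other array. Its log2 change was 4.34 ± 0.37 (SE, n = 2 arrays a group; limma adjusted p = 0.00344) at 2 h, 5.44 (adjusted p = 0.000338) at 4 h and 4.33 (adjusted p = 0.00116) at 8 h. These sizes depend on the floor, under which untreated replicate 1 lay: at 2 h the change was 3.70 with a floor of the 75th percentile divided by 4 and 4.84 with that percentile divided by 16. The call at 2 h was lost without 2 h replicate 1 (adjusted p = 0.0670), and those at 4 and 8 h held in all 10 fits that left out 1 array. At 24 h the log2 change was 2.99 (adjusted p = 0.0659). It passed with the replicate block (adjusted p = 0.0140) and after quantile normalization (3.20, adjusted p = 0.0152). It did not pass with either other floor, on unscaled intensities or when dim probe sets were tested too. Leaving out 1 array moved this change between 2.63 and 3.36.

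The other Star probe set, AB006007_s_at, was also highest at 4 h. It read 34.1 and 63.4 untreated, 237 and 515 at 2 h, 515 and 775 at 4 h, 424 and 614 at 8 h, and 132 and 184 at 24 h. Replicate 2 was the higher array at all 5 times, and neighbouring times from 2 to 8 h overlapped. The log2 changes were 2.80, 3.91, 3.64 and 1.95 within replicate 1 and 3.02, 3.61, 3.28 and 1.53 within replicate 2, at 2, 4, 8 and 24 h in turn. The changes were thus of like size in the 2 replicates, and the limma adjusted p was 0.0293, 0.00812 and 0.0118 at 2, 4 and 8 h. All 3 calls were lost when dim probe sets were tested too (0.172, 0.0588 and 0.0953), and the 2 h call also on unscaled intensities (0.0555). Leaving out single arrays kept the 2 h call in 2 of 10 fits, with an adjusted p of up to 0.221 (without 2 h replicate 2). Those at 4 and 8 h each held in 7, and were lost without control replicate 1 (adjusted p = 0.0779 and 0.0961) or without either array of the treated time. Between 8 and 24 h this probe set fell by 1.71 on the log2 scale, which passed only with the replicate block (adjusted p = 0.0176; 0.354 without it).

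Fdx1 was measured by 2 probe sets that differed in size of change. The probe set D50436_at read 245 and 247 untreated, 830 and 987 at 2 h, 2233 and 2709 at 4 h, 2414 and 2504 at 8 h, and 796 and 453 at 24 h. No treated array overlapped the untreated ones, the 4 and 8 h arrays overlapped each other, and the 2 and 24 h arrays lay between. The log2 change was 1.88 ± 0.35 (SE, n = 2) at 2 h, where the adjusted p of 0.0545 missed the threshold and passed with the replicate block (0.0165). It was 3.32 at both 4 h (adjusted p = 0.00255) and 8 h (adjusted p = 0.00335). The 4 h call held in all 10 fits that left out 1 array, and the 8 h call was lost without 8 h replicate 1 (adjusted p = 0.0541). From 8 to 24 h Fdx1 fell by 2.03 (adjusted p = 0.0721, and 0.0171 with the replicate block), and at 24 h it was 1.29 above control (adjusted p = 0.738, and 0.210 with the replicate block).

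The other Fdx1 probe set, rc_AI044488_at, was dimmer and split by replicate number. Replicate 1 read 47.0, 58.3, 92.9, 94.8 and 43.9 at 0, 2, 4, 8 and 24 h. Replicate 2 read 76.0, 175, 299, 291 and 84.8. Both series were highest at 4 and 8 h and back near their own start at 24 h. The log2 change was 1.48 ± 0.76 (SE) at 4 h and the same at 8 h (1.48), not called without the block (adjusted p = 0.795 and 0.637) and just past the threshold with the replicate block (0.0464 and 0.0498).

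Fdx1 is shown with its promoter because it was called and its sequence could be searched for cAMP-linked motifs. RefSeq promoters on build GRCr8, running from 250 bases before to 50 bases after the gene's start, matched 5 of the 10 members, Fdx1, Por, Hsd17b4, Hsd17b10 and Sts. Both strands were searched for TGACGTCA (the full cAMP response element) and TGACG (part of it), AAGGTCA (a site type of Nr5a1) and AAAGGTCA (of the Nr4a receptors, which holds the former), the motif TGATTGC, the GATA motif AGATAA and the TATA box TATAAA. Of 33469 promoters of this length, 1.83% held TGACGTCA, 21.2% TGACG, 4.61% AAGGTCA, 1.43% AAAGGTCA, 2.08% TGATTGC, 11.6% AGATAA and 14.2% TATAAA. The Fdx1 window, chr8:61183596-61183895 on the minus strand, held none of these 7. It held GGGCGG, the GC box, at 2 places (-102 and -75 from the start, the former on the reverse strand), shown in capitals. Of all promoters, 33.1% held this motif at 1 or more places. Among the uncalled members, Sts held it at 4 places, Por and Hsd17b4 at 2 each, and Hsd17b10 at 0. The GC box was added after the Fdx1 sequence was seen.
Fdx1: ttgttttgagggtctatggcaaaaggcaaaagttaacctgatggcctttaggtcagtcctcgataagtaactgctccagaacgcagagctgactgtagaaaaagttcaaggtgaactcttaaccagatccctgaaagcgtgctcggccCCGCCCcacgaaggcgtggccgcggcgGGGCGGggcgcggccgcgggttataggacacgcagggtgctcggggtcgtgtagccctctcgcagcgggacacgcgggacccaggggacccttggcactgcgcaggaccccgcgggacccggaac

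Scarb1 had 3 probe sets. The probe set D89655_at read 172 and 87.7 untreated, 110 and 74.5 at 2 h, 534 and 298 at 4 h, 1434 and 570 at 8 h, and 278 and 175 at 24 h. Replicate 1 was the higher array at all 5 times, the 2 h arrays overlapped the untreated ones, and those at 4 and 8 h lay above both. Within replicate 1 the log2 change was -0.65, 1.64, 3.06 and 0.69 at 2, 4, 8 and 24 h, and within replicate 2 it was -0.24, 1.76, 2.70 and 1.00. The 8 h change of 2.88 ± 0.55 (SE, n = 2) had an adjusted p of 0.0594, and 0.000605 with the replicate block. It also passed on unscaled intensities (0.0417) and after quantile normalization (0.0485). The 4 h change of 1.70 passed only with the replicate block (adjusted p = 0.327 without it and 0.0109 with it), as did the fall by 2.03 from 8 to 24 h (0.315 and 0.0116).

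On the other Scarb1 probe sets the 4 h change differed more between the replicates. Within replicates 1 and 2 it was 0.54 and 1.98 on AF071495_s_at, and 1.03 and 3.29 on rc_AA874843_s_at. AF071495_s_at read 320 and 124 untreated, 268 and 136 at 2 h, 465 and 491 at 4 h, 1322 and 478 at 8 h, and 399 and 287 at 24 h. rc_AA874843_s_at read 314 and 61.3, then 85.1 and 184, 642 and 600, 1534.5 and 659, and 412 and 239. On all 3 probe sets the 8 h array of replicate 1 was the highest of the 10 arrays, and untreated replicate 1 was above untreated replicate 2. On AF071495_s_at replicate 2 was about as high at 4 h as at 8 h. On rc_AA874843_s_at the 2 h change was -1.88 within replicate 1 and 1.59 within replicate 2. At 8 h the log2 changes were 1.99 and 2.86, with adjusted p = 0.273 and 0.182, and 0.0233 and 0.0455 with the replicate block. Leaving out 1 array moved the 8 h change from 1.26 (without 8 h replicate 1) to 2.73 (without 8 h replicate 2) on AF071495_s_at. It moved from 1.68 (without control replicate 2) to 4.04 (without control replicate 1) on rc_AA874843_s_at, and from 2.21 (without 8 h replicate 1) to 3.55 (without 8 h replicate 2) on D89655_at. None of these fits called a Scarb1 probe set at 8 h. At 2 h the 3 probe sets had log2 changes of -0.06 to -0.44 with SEs of 0.55 to 0.75 (adjusted p = 0.999 each).

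**Figure D1:**
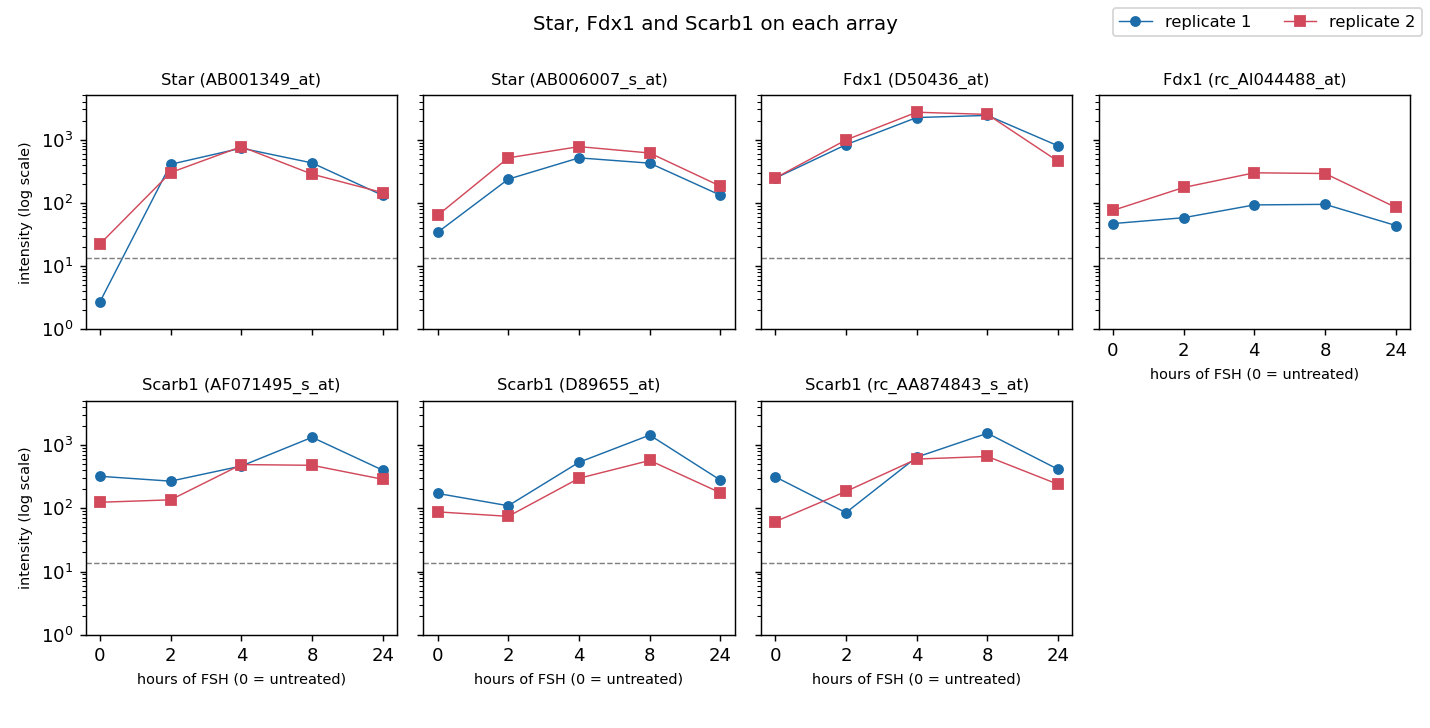
Intensity (log axis) of each Star, Fdx1 and Scarb1 probe set on every array, by hours of FSH with the times evenly spaced; lines join the arrays of replicate 1 (circles) and replicate 2 (squares), and the dashed line is the floor of 13.5. Star is highest at 4 h, Fdx1 at 4 and 8 h, and the highest Scarb1 array is 8 h replicate 1 on all 3 probe sets.

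Counted over all 18 tested member probe sets, 2 were called higher at 2 h, 3 at 4 h, 3 at 8 h and 0 at 24 h, and 0 lower at any time. Among all 4439 tested probe sets, the share called in either direction was 0.676%, 0.856%, 0.766% and 0% at these times. With the replicate block 3, 5, 7 and 1 members were called, against 1.22%, 2.95%, 2.68% and 0.0901% of all. The members called at 4 and 8 h were the same 3 probe sets, 2 of Star and 1 of Fdx1. At 24 h, an unadjusted limma p under 0.05 was held by 4 member probe sets and 204 of all tested, and with the block by 5 and 411. The 2 h count was 0 without 2 h replicate 1 and 1 without either untreated array, 2 h replicate 2, 4 h replicate 1, either 8 h array or 24 h replicate 1. The 8 h count was 1 without 8 h replicate 1.

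Both arrays of a time lay above both untreated arrays for 5 of the 18 at 2 h, 10 at 4 h, 10 at 8 h and 7 at 24 h. Over all tested probe sets this share was 11.9%, 15%, 17.7% and 15.9%, and over the members 27.8%, 55.6%, 55.6% and 38.9%. Probe sets of a gene share their transcript, so these are not independent counts. The members were also chosen with earlier results of these data known. The median log2 change over the members was -0.06, 0.60, 0.51 and 0.24, against -0.02, -0.03, -0.02 and 0.02 over all tested probe sets. In the comparison of 24 h with 8 h no member was called, where 0.225% of all were. An unadjusted limma p under 0.05 was held by 5 members and by 288 of all tested. With the replicate block 3 members were lower, the probe sets AB006007_s_at of Star, D50436_at of Fdx1 and D89655_at of Scarb1, where 1.15% of all were called. Of the 4439 tested probe sets, none was called between 2 and 4 h (0%) or between 4 and 8 h (0%). The fit with the replicate block called 0 and 4. A fit without the block that also tested dim probe sets called 14 and 13. None of these was a member. An unadjusted limma p under 0.05 was held there by 4 and 1 member probe sets, and by 160 and 152 of all tested.

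**Figure D2:**
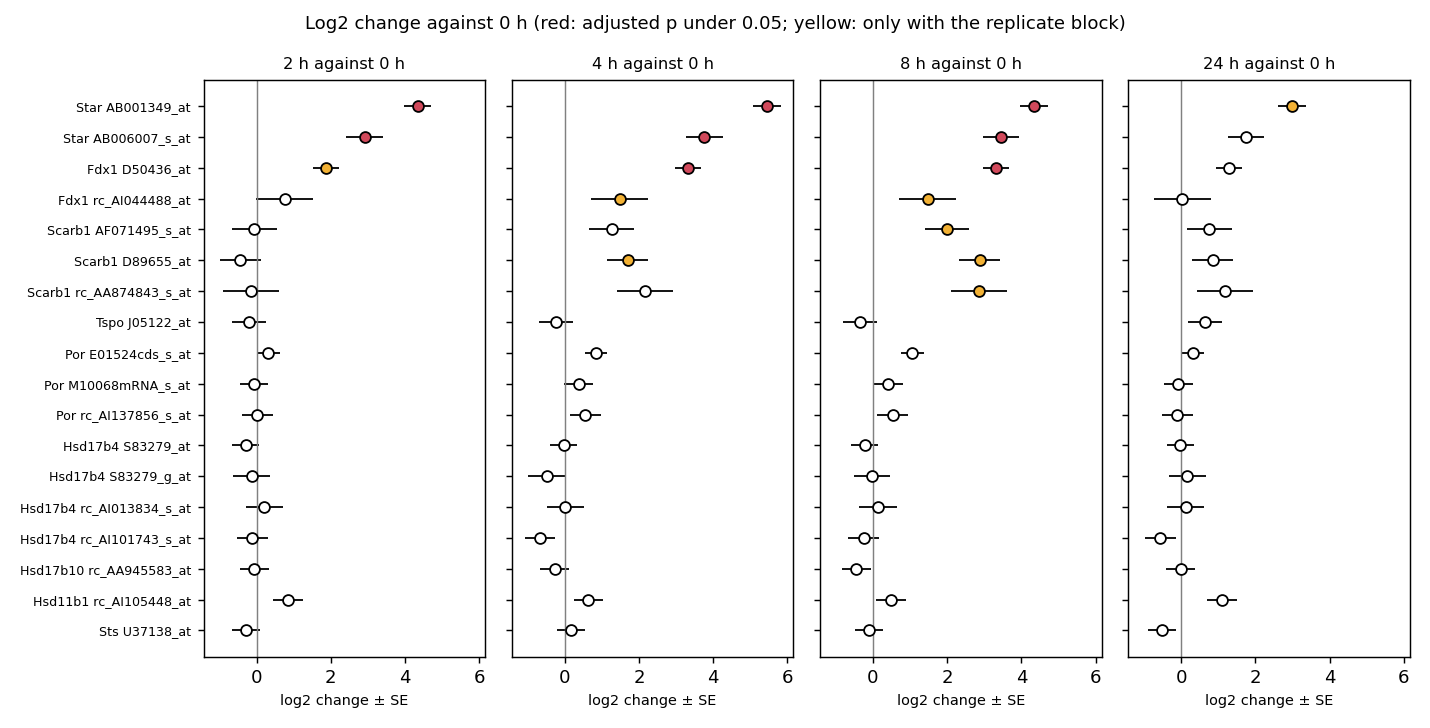
Log2 change against 0 h (points) with limma standard errors (bars, n = 2 arrays a group) for the 18 tested member probe sets, in 1 panel per time. Red points were called without the replicate block, yellow ones with the block but not without it, and white ones in neither of these 2 fits. Other settings are not shown. The points of Star lie farthest right at 2, 4 and 8 h, and of the Scarb1 points 1 at 4 h and 3 at 8 h are yellow.

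Among genes with a role beside these, Tspo encodes a translocator protein of the outer mitochondrial membrane. It read 517 and 337 untreated, 258 and 515 at 2 h, 268 and 465 at 4 h, 277 and 393 at 8 h, and 570 and 749 at 24 h. Only the 24 h arrays lay above both untreated ones, and the log2 change there was 0.65 ± 0.46 (SE; adjusted p = 0.996). At 4 and 8 h the change was -0.95 and -0.90 within replicate 1 and 0.47 and 0.22 within replicate 2, so the 2 numbers moved in opposite directions.

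Por encodes the reductase that passes electrons to the microsomal cytochromes P450, aromatase among them. Its probe set E01524cds_s_at read 145 and 114 untreated, 173 and 148 at 2 h, 240 and 220 at 4 h, 302 and 238 at 8 h, and 160 on both arrays at 24 h. All treated arrays were above both untreated ones. The change at 8 h, 1.06 ± 0.31 (SE) on the log2 scale, was 1.06 within replicate 1 and 1.07 within replicate 2, and it was not called (adjusted p = 0.245, and 0.0653 with the replicate block). The other Por probe sets ranged from 149 to 474 over the arrays, with log2 changes at 8 h of 0.42 and 0.53 (adjusted p = 0.863 and 0.805).

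Cyp19a1 encodes aromatase, the enzyme known to answer FSH in Sertoli cells. Its single probe set was dim, and its mean over the 10 arrays of 19.3 kept it out of the test. It was under the floor on untreated replicate 1, on both 2 h arrays and on 24 h replicate 2, and read 26.3 on untreated replicate 2. It read 26.6 to 28.9 on the 4 arrays of 4 and 8 h and 28.7 on 24 h replicate 1. The 4 and 8 h arrays thus lay just above the higher untreated array. When dim probe sets were tested too, the log2 change was 0.53 at 4 h and 0.57 at 8 h (limma adjusted p = 0.928 and 0.819). A change of aromatase mRNA was not detectable at this signal.

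The remaining enzymes interconvert steroids or release them from sulphate. Hsd17b4, a peroxisomal enzyme that oxidises oestradiol and shortens fatty acids, had 4 probe sets with log2 changes from -0.67 to 0.21 over all times and no call. The 4 did not move together over the 10 arrays: S83279_g_at was higher on replicate 2 at all 5 times (median log2 difference 0.75), and rc_AI013834_s_at was lower there at all 5 (-0.80). Across the 10 arrays these 2 correlated at r = -0.80, and S83279_g_at and S83279_at, named for the same sequence, at r = -0.17, as a description of arrays that share their replicate numbers. Hsd17b10, a mitochondrial dehydrogenase, read between 152 and 295 on all arrays, with log2 changes of -0.06, -0.27, -0.46 and -0.02 at 2, 4, 8 and 24 h.

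Hsd11b1 encodes the enzyme that regenerates active glucocorticoid. It read 105 and 169 untreated, 173 and 331 at 2 h, 193 and 222 at 4 h, 178 and 196 at 8 h, and 292 and 281 at 24 h. All 8 treated arrays were above both untreated ones, though by little for several. The largest log2 change was 1.10 ± 0.39 (SE) at 24 h, 1.47 within replicate 1 and 0.73 within replicate 2, and it was not called (adjusted p = 0.996, and 0.289 with the replicate block).

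Sts encodes steroid sulphatase, which frees steroids from their sulphates. It read 46.6 and 47.5 untreated, 41.2 and 36.6 at 2 h, 55.8 and 50.3 at 4 h, 49.1 and 38.5 at 8 h, and 38.6 and 28.2 at 24 h. Its log2 changes were -0.28, 0.17, -0.11 and -0.51 with an SE of 0.37, and none was called (adjusted p of 0.973 to 0.999). Its promoter is shown because, of the 5 searched, it alone held the full cAMP response element TGACGTCA, at -225 and -94 from the start, in capitals. It also held TATAAA after the start, at position 14. The window is chrX:46102510-46102809 on the plus strand of GRCr8. The Por, Hsd17b4 and Hsd17b10 windows held none of the 7 motifs.
Sts: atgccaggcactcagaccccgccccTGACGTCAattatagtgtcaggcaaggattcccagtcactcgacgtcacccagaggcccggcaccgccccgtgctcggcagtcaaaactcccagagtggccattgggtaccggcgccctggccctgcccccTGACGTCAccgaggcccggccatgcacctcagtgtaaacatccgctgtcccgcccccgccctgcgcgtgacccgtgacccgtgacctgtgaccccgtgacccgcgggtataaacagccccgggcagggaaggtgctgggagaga

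**Figure D3:**
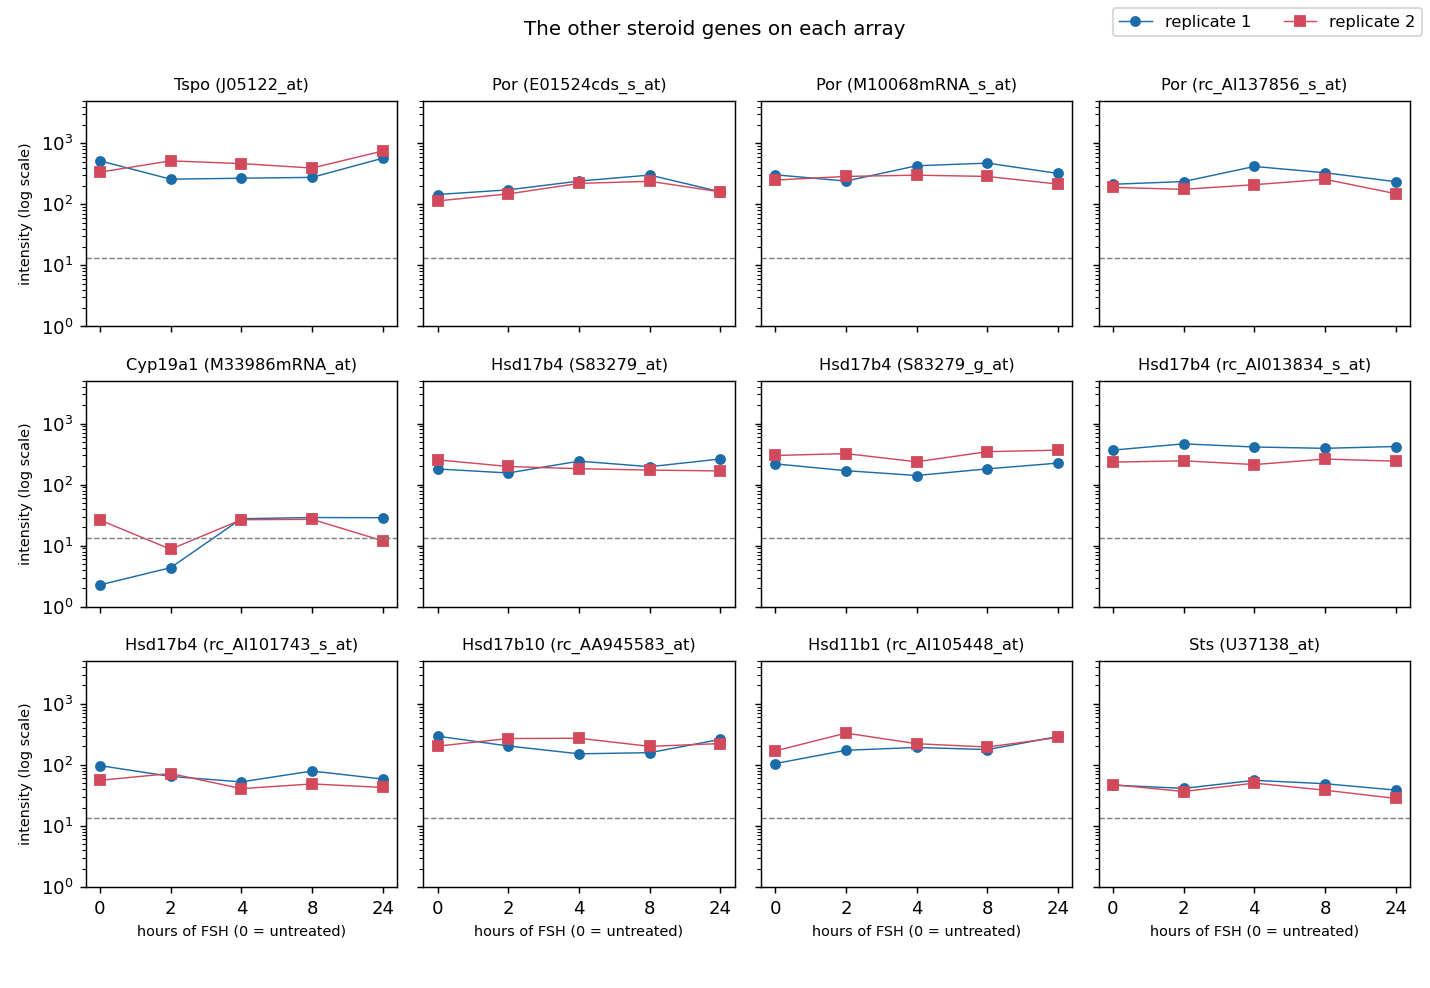
Intensity (log axis) of the 12 probe sets of Tspo, Por, Cyp19a1, Hsd17b4, Hsd17b10, Hsd11b1 and Sts on every array by hours of FSH, with the times evenly spaced; circles are replicate 1, squares replicate 2, and the dashed line is the floor of 13.5. Cyp19a1 stays between 2.28 and 28.9, and none of the other, tested probe sets was called.

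Other genes of the pathway were taken from lists that were chosen with earlier results of these data known. For later synthesis and steroid metabolism, 16 of 27 listed genes had a probe set, and 4 (Cyb5a, Cyp1b1, Hsd17b8 and Hsd17b12, on 9 probe sets) were bright enough to test. None of the 9 was called at 2, 4, 8 or 24 h, and 3, 3, 3 and 0 had an unadjusted limma p under 0.05. Among all 4439 tested probe sets 0.676%, 0.856%, 0.766% and 0% were called, and 203, 344, 413 and 204 had such a p. With the replicate block 2 of the 9 were higher at 4 and 8 h, both of Cyp1b1, where 2.95% and 2.68% of all were called. Cyp1b1 encodes a P450 that hydroxylates oestradiol. Its probe set rc_AI176856_at read 25.5 and 157 untreated, 332 and 367 at 2 h, 513 and 449 at 4 h, 477 and 458 at 8 h, and 110 and 90.5 at 24 h. The treated arrays up to 8 h were above both untreated ones, and the change at 4 h was 2.92 ± 0.68 (SE; adjusted p = 0.107, and 0.0318 with the replicate block). It passed without control replicate 2 (adjusted p = 0.00402), the only one of the 10 arrays whose removal had this effect.

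Of 16 listed genes of cholesterol uptake, storage and traffic, 9 had a probe set and 8 were tested, on 13 probe sets. With the replicate block 1 of the 13 was called at 4 h and 1 at 8 h, against 2.95% and 2.68% of all 4439 tested probe sets. Without the block the 1 call was Vdac1, a channel of the outer mitochondrial membrane, at 8 h, where 0.766% of all were called. AF048828_at read 81.3 and 77.3 untreated, 116 and 101 at 2 h, 214 and 181 at 4 h, 327 and 233.5 at 8 h, and 80.5 and 88.4 at 24 h. It rose by 1.80 ± 0.31 (SE) on the log2 scale at 8 h (adjusted p = 0.0368), a call lost in each of the 10 fits that left out 1 array (adjusted p of 0.0630 to 0.409). At 4 h its change of 1.31 passed only with the replicate block (adjusted p = 0.113 without it and 0.0322 with it). A further Vdac1 probe set had a change of 1.31 at 8 h that was not called (adjusted p = 0.334). For 7 of 10 listed transcription factors, 12 probe sets were tested. Of these, 5, 4 and 3 were higher at 2, 4 and 8 h (7, 5 and 3 with the replicate block). They belonged to Crem, Cebpb and Nr4a1. Over all tested probe sets the share called in either direction was 0.676%, 0.856% and 0.766% (1.22%, 2.95% and 2.68% with the block). The Nr4a1 probe set U17254_at was called at 2 and 4 h only with the replicate block (limma adjusted p = 0.204 and 0.307 without it). Leaving out 1 array kept both Cebpb calls at 2 h in 6 of 10 fits, and they were lost without either array of 0 or 2 h (adjusted p of up to 0.266). The Nr4a1 call at 4 h and those of the Crem probe set U04835_at at 4 and 8 h were kept in 2 of 10, lost without any array of 0, 2, 4 or 8 h (adjusted p of up to 0.374). The Crem probe set S66024_at kept its 4 and 8 h calls in all 10 fits. Nr5a1, which encodes steroidogenic factor 1, read 144 on untreated replicate 1 and 17.4 to 41.9 on all other arrays, and was not called.

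The markers of Leydig cells, the other steroid-making cells of the testis, were dim. Of 8 listed genes, 4 had a probe set. Cyp11a1, the gene of the side chain cleavage enzyme that Fdx1 serves, read 4.26 to 17.9 over the 10 arrays and was under the floor on 6 of them. Cyp17a1 read 2.19 to 17.7 and was under the floor on 8. Hsd17b3 read 14.2 to 44.2, and only 1 of the 8 probe sets, for Lhcgr (15.5 to 70.7), passed the intensity filter. Summed over all 8, the Leydig list gave 98.7 and 176 untreated, 152 and 61.3 at 2 h, 180 and 173 at 4 h, 118 and 96.3 at 8 h, and 143 and 113 at 24 h. These sums did not separate untreated from treated arrays. Cyp11a1 at 4 h read 8.83 and 17.9, when both Star probe sets were at their highest.

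The other cell type lists were checked in the same way. The germ cell list, the peritubular myoid list, the macrophage list and the endothelial list gave sums of 437 to 4220, 335 to 2903, 157 to 268 and 40.0 to 114 over the 10 arrays. The germ cell sum was higher in replicate 2 at all 5 times. It was highest at 4 h in both replicates, and it includes Crem, without which no sum was taken. It was 1063, 1651, 2797, 2131 and 437 in replicate 1 at 0, 2, 4, 8 and 24 h. In replicate 2 it was 2395, 3490, 4220, 3853 and 2581. At 24 h it was below its 0 h value in replicate 1 and above it in replicate 2. Of the 8 tested probe sets of the germ cell list, 2, 3 and 3 were called higher at 2, 4 and 8 h. All of them were of Crem, which is also in the transcription factor list. Over all tested probe sets 0.676%, 0.856% and 0.766% were called at these times. The myoid sum was highest on 24 h replicate 1 (2903 against 335 to 1052 on the other 9). Their part in the member results was not tested.

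**Figure D4:**
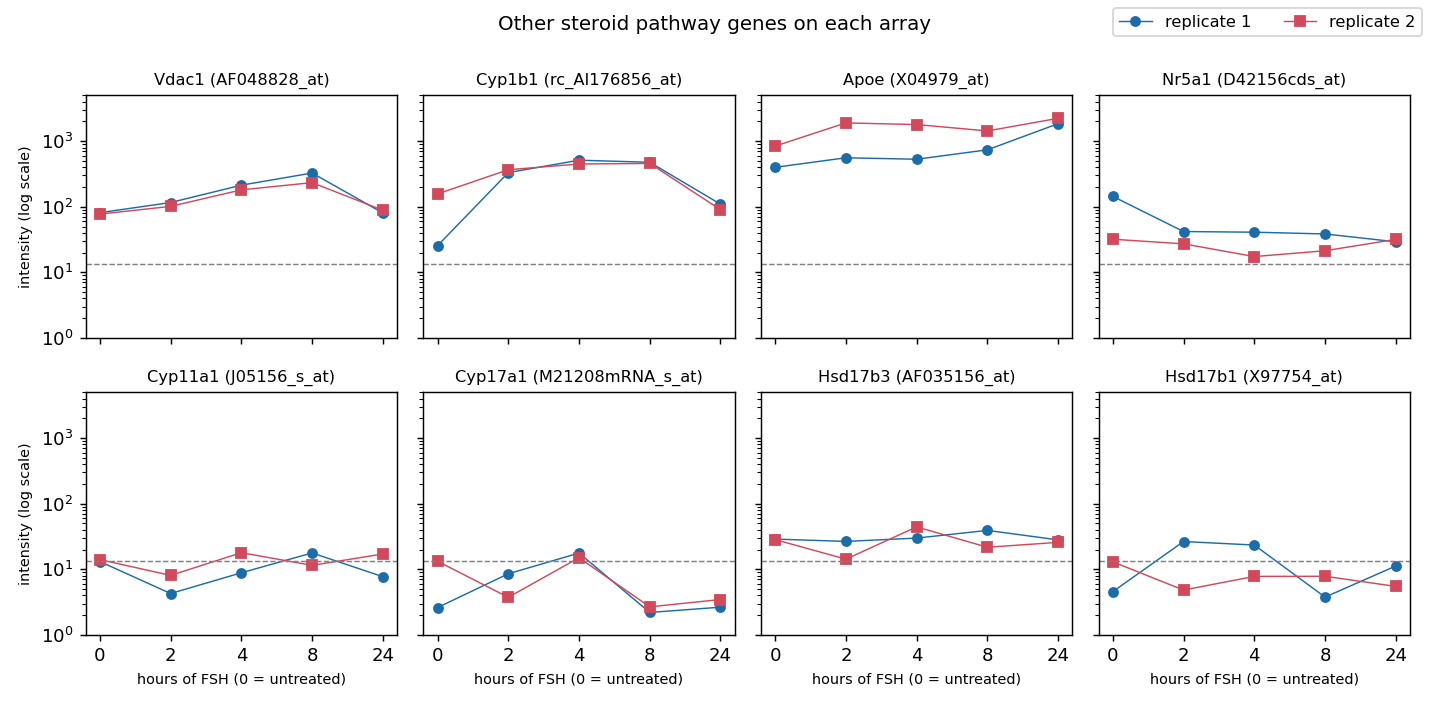
Intensity (log axis) of 8 other genes of the steroid pathway on every array by hours of FSH, with the times evenly spaced; circles are replicate 1, squares replicate 2, and the dashed line is the floor of 13.5. Vdac1 and Cyp1b1 are higher at 4 and 8 h than at 0 h, Apoe differs by replicate number, and Cyp11a1, Cyp17a1 and Hsd17b1 lie around or under the floor.

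Patterns over the 10 arrays were compared by Pearson correlation of log2 values, as a description without a test, over arrays that share replicate numbers and controls. The 2 Star probe sets correlated at r = 0.94, and the 3 Scarb1 probe sets at 0.89 to 0.95. AB006007_s_at of Star correlated at 0.92 with D50436_at of Fdx1 and at 0.39 to 0.50 with the Scarb1 probe sets. The dimmer Fdx1 probe set, rc_AI044488_at, correlated at 0.66 with D50436_at. Its r was 0.77 with AB006007_s_at and 0.54 with AB001349_at of Star. Between probe sets of Scarb1 and Por the highest r was 0.90, for D89655_at with E01524cds_s_at. The lowest was 0.59, for rc_AA874843_s_at with rc_AI137856_s_at. The genes closest to the brighter Star probe set were Dgcr6 (r = 0.96), Fdx1 (0.92), Slc25a30 (0.92), Plat (0.91) and Emd (0.91). Those closest to the brighter Fdx1 probe set were Slc25a30 (0.98), Bex3 (0.97), Dgcr6 (0.97), Plat (0.95) and Ezr (0.94), so Slc25a30, Dgcr6 and Plat were on both lists.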

How the data were processed

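Total RNA was measured on 10 arrays. The deposited values are linear intensities, 1 per probe set and array; how the authors made them is not given in the sources used here. Symbols came from GEO's platform annotation, and 7006 probe sets carried exactly 1. Intensities were brought to a common 75th percentile of 108 with array divisors from 0.909 to 1.13, over the 8740 probe sets that were not the 59 controls. Values under 13.5, that percentile divided by 8, were set to it before log2. The model was fitted in R 4.3.3 with limma 3.58.1 (1 mean per group, eBayes with an intensity trend, 5 residual degrees of freedom), adjusted by Benjamini-Hochberg over 4439 probe sets, and the code was tested on simulated data. The 2 h array without a number was taken as replicate 1. For each of the 10 pairs of times, arrays of the same number deviated together from their group means (r between 0.110 and 0.698). For 0 h with 2, 4, 8 and 24 h the r was 0.110, 0.205, 0.353 and 0.417, the lowest of the pairs. A second fit therefore held the numbers as a block (4 residual degrees of freedom). The labels do not say that equal numbers mark 1 culture, and what the numbers stand for was not tested.

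Named were all members, called genes of the pathway lists, and for called members the 5 genes with the most alike pattern. Members and lists were chosen with earlier results of these data known. The comparisons of 4 h with 2 h and 8 h with 4 h, the GC box and the promoter search of uncalled members were added later. The number of arrays limits the precision. Alternatives were 2 other floors, no rescaling, quantile normalization, no filter, the block, and leaving out each array.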

Additional observations from a re-analysis of the deposited data

How the results depend on the processing

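Of the member changes over 7 comparisons, 19 were called in at least 1 fit and kept their direction in all fits run; of the 107 called in none, 48 changed sign in some fit. Called member probe sets at 2, 4, 8 and 24 h against 0 h, and 24 h against 8 h, numbered 2, 3, 3, 0 and 0. With the replicate block they numbered 3, 5, 7, 1 and 3, with quantile normalization 3, 3, 4, 1 and 1, with no filter on dim probe sets 1, 2, 2, 0 and 0, on values as deposited 2, 3, 4, 0 and 1, and with the floor at the 75th percentile divided by 4 they were 3, 3, 3, 0 and 1. Leaving out 1 array gave 0 to 3 at 2 h, 2 to 3 at 4 h, 1 to 3 at 8 h and 0 for the other comparisons. Over all probe sets the same 5 comparisons had 30, 38, 34, 0 and 10 calls. The replicate block made these 54, 131, 119, 4 and 51, and 4 for 8 h against 4 h, which had 0. Without the filter they were 23, 42, 34, 4 and 2, with 14 for 4 h against 2 h and 13 for 8 h against 4 h, where there had been 0. For 24 h against 8 h the lower divisor of the floor gave 17 and quantile normalization 16, which also gave 2 at 24 h. Leaving out 1 array gave 0 to 31 at 2 h, 8 to 28 at 4 h, 5 to 26 at 8 h and 0 to 15 for 24 h against 8 h. The cause of these shifts was not tested. Probe sets near the floor, Cyp19a1 among them, give no usable fold, and 2 arrays a group limit every p.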
